A study of Mus musculus with 24 samples.

Results

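MOVAS cells kept under vehicle with an inhibitor of ADAM9 were compared with MOVAS cells that carried an edit at the Rosa26 locus and also received vehicle. Each group was represented by 3 libraries, so that 6 of the 24 libraries of the series entered the comparison, and all genes of the table were considered. MOVAS cells are an established line of smooth muscle cells from the mouse aorta. The ADAM9i vehicle cells were labelled WT in genotype, hence unedited, and received the inhibitor and vehicle but no recombinant CTHRC1. The Rosa26-KO vehicle cells were edited at Rosa26, a locus commonly used as a control for the editing procedure, and received vehicle without the inhibitor. The labels name neither the compound, its dose nor its duration, and do not say whether the edited cells were 1 clone or a pool or whether replicates were separate cultures; p-values therefore measure the spread between these libraries, which may be technical. Because the groups differed in inhibitor and in editing at once, the inhibitor, the editing and any difference in handling cannot be told apart in this comparison. The same contrast was available in 6 further libraries in which both kinds of cells were given rhCTHRC1, recombinant human CTHRC1, in place of vehicle.

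ADAM9 is a membrane-anchored metalloprotease that sheds the extracellular parts of other membrane proteins, and smooth muscle cells of the aortic wall express it. An inhibitor of the enzyme acts on the protein and need not change its mRNA. Aortic smooth muscle cells in culture make collagens and elastic fibre proteins, keep a partly contractile programme, and can also make chemokines and acute-phase proteins when NF-kB or interferon pathways are active.

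The 6 libraries held 61608717 to 63368380 counts in genes, and a count of 0 in 1 library allowed a level of up to 0.0493 CPM, a gene's counts relative to the library's total, taking 3 counts as the limit, which covers counting error alone. Throughout, a level is a TMM-scaled CPM, TMM being a normalisation that sets the bulk of genes equal between libraries. Mitochondrially encoded genes took 3.77 to 4.02% of the counts in ADAM9i vehicle libraries and 3.91 to 4.05% in Rosa26-KO vehicle libraries. Of 8 smooth muscle markers, 7 were above 1 CPM in ADAM9i vehicle and 6 in Rosa26-KO vehicle. Their summed level was 578 to 614 CPM in ADAM9i vehicle and 533 to 553 CPM in Rosa26-KO vehicle, most of it from Acta2. Myh11, the smooth muscle myosin heavy chain, was below 0.5 CPM in all 6 libraries. The 12 fibroblast markers summed to 322 to 359 CPM in ADAM9i vehicle against 314 to 341 CPM in Rosa26-KO vehicle. Of 8 macrophage markers, Adgre1 and Tyrobp had no count in either group, and the sum was 20.5 to 23.9 CPM in ADAM9i vehicle against 17.98 to 19.5 CPM in Rosa26-KO vehicle. The 9 endothelial markers summed to 3.998 to 6.30 CPM in ADAM9i vehicle against 2.74 to 3.03 CPM in Rosa26-KO vehicle, and the epithelial markers to 0.263 to 1.14 CPM in ADAM9i vehicle against 0.226 to 0.427 CPM in Rosa26-KO vehicle. In bulk samples such as these, fewer cells of a type and less RNA per cell cannot be told apart.

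Adam9 itself (chr8:24949611-25016927, minus strand, GRCm38) was measured at 159, 162 and 172 CPM in the ADAM9i vehicle libraries, against 229, 237 and 241 CPM in the Rosa26-KO vehicle libraries. The groups did not overlap, and Adam9 mRNA was lower in ADAM9i (log2 difference -0.52 ± 0.036 SE, edgeR adjusted p = 5.1e-07). It was also lower under rhCTHRC1, with a log2 difference of -0.46 (edgeR adjusted p = 2.72e-06). Gt(ROSA)26Sor, the noncoding transcript of the Rosa26 locus, had 4.38, 9.29 and 7.10 CPM in ADAM9i vehicle, against 5.60, 6.51 and 11.8 CPM in Rosa26-KO vehicle. These ranges overlapped, and the difference did not pass the test (log2 difference -0.20 ± 0.41 SE, edgeR adjusted p = 0.819). Cthrc1, the endogenous mouse gene, had 0 counts in all 6 libraries.

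Of 17311 genes tested, 2899 were called at an adjusted p below 0.05, which is 16.7% of those tested; 1391 (8.04%) were higher and 1508 (8.71%) lower in ADAM9i vehicle than in Rosa26-KO vehicle. Which direction held more calls depended on the method, with 1561 higher and 1344 lower when scaled by library size alone, and 1247 higher and 1038 lower with limma on log2(FPKM + 1). Most of these differences were small: 139 genes (0.803%) were called and at least 2-fold higher and 33 (0.191%) called and at least 2-fold lower, and the median log2 difference over all genes was 0.003. The libraries of the groups did not overlap for 33.4% of the genes tested, called or not, and 4929 genes had an unadjusted p under 0.05 in edgeR. Leaving out any 1 library lowered the count, to between 1930 and 2535. Without Rosa26-KO vehicle replicate 1, 2 or 3 it was 2211, 2041 and 2046. It was lowest without ADAM9i vehicle replicate 1, with 893 higher and 1037 lower, of which 1870 were among the 2899 and in the same direction.

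The largest increases in ADAM9i were in genes that Rosa26-KO cells barely expressed. Akr1c18, an aldo-keto reductase that inactivates progesterone, had 1.72, 0.953 and 1.26 CPM in ADAM9i vehicle and no count in any Rosa26-KO vehicle library, at least 26.6-fold higher against the limit of 3 counts per library (edgeR adjusted p = 1.51e-05). Sprr2h, of the small proline-rich proteins of the epidermal envelope, had 99, 171 and 46 counts in ADAM9i vehicle, against 4, 0 and 2 counts in Rosa26-KO vehicle (edgeR adjusted p = 0.00018). Prl2c3 and Prl2c2, prolactin-family growth factors also known as proliferins, were apart in the same way. Prl2c2 had 28.1, 19.2 and 15.1 CPM in ADAM9i vehicle, against 2.09, 1.15 and 1.51 CPM in Rosa26-KO vehicle, a log2 difference of 3.72 ± 0.33 (edgeR adjusted p = 0.000941), and Prl2c3 a log2 difference of 4.36 ± 0.33 (edgeR adjusted p = 9.17e-07). Both families have near-identical copies, so reads may have been divided among them and the levels of single members are uncertain. Gria1, a glutamate receptor subunit, had 1.80, 2.02 and 1.85 CPM in ADAM9i vehicle, against 0.0657, 0.339 and 0.130 CPM in Rosa26-KO vehicle, and Nrcam, a neuronal cell adhesion molecule, 1.75, 2.05 and 1.31 CPM in ADAM9i vehicle, against 0.197, 0.178 and 0.227 CPM in Rosa26-KO vehicle. Both were called, with log2 differences of 3.39 and 3.07 (edgeR adjusted p = 0.000141 and 4.02e-05). Hmga1, an architectural chromatin protein expressed far more strongly, was among the genes of smallest p, with 289, 275 and 271 CPM in ADAM9i vehicle, against 177, 168 and 167 CPM in Rosa26-KO vehicle (log2 difference 0.70 ± 0.035, edgeR adjusted p = 3.59e-08).

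Decreases were shallower. Map3k7cl, a short protein related to the kinase TAK1, had 1.47, 0.888 and 0.876 CPM in ADAM9i vehicle, against 4.09, 4.68 and 3.73 CPM in Rosa26-KO vehicle (log2 difference -1.95 ± 0.24, edgeR adjusted p = 7.65e-05). Lypd1, a GPI-anchored modulator of acetylcholine receptors, had 5.23, 5.98 and 5.86 CPM in ADAM9i vehicle, against 17.3, 19.3 and 17.1 CPM in Rosa26-KO vehicle (log2 difference -1.65 ± 0.10, edgeR adjusted p = 2.23e-07). Fras1, an extracellular protein of the basement membrane, had 6.69, 9.45 and 9.49 CPM in ADAM9i vehicle, against 22.6, 22.1 and 22.3 CPM in Rosa26-KO vehicle. Adamtsl3, an ADAMTS-like matrix glycoprotein, and Ntrk3, the receptor of neurotrophin 3, were lower by log2 differences of -1.25 and -1.20 (edgeR adjusted p = 7.33e-06 and 5.87e-06). For each of these genes every ADAM9i vehicle library lay below every Rosa26-KO vehicle library, because the choice of genes required it. Over all genes tested, called or not, the groups did not overlap for 33.4%.

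Acute-phase proteins and chemokines were higher in ADAM9i. Of 29 tested members of the list of chemokines, cytokines and NF-kB targets, 14 were called higher and 3 lower, with a median log2 difference of 0.40, beside 8.04% called higher and a median of 0.003 over all genes. Saa3, the acute-phase serum amyloid A made outside the liver in mice (chr7:46711998-46715700, minus strand), had 92.2, 99.4 and 90.5 CPM in ADAM9i vehicle, against 23.6, 25.0 and 22.0 CPM in Rosa26-KO vehicle. The fold was 3.997, with a log2 difference of 1.999 ± 0.058 (edgeR adjusted p = 1.1e-10). Lcn2, lipocalin 2, which binds iron-loaded bacterial siderophores, had 53.1, 48.1 and 47.1 CPM in ADAM9i vehicle, against 17.6, 15.7 and 16.1 CPM in Rosa26-KO vehicle (log2 difference 1.59 ± 0.072, edgeR adjusted p = 1.27e-08). Hp, haptoglobin, which binds free haemoglobin, had 52.0, 57.7 and 50.1 CPM in ADAM9i vehicle, against 15.7, 15.9 and 14.2 CPM in Rosa26-KO vehicle (log2 difference 1.81 ± 0.074, edgeR adjusted p = 3.83e-09). All 3 genes showed groups far apart relative to the spread inside a group.

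Complement C3, the central component of the complement cascade, was called at a smaller difference, with 959, 1055 and 973 CPM in ADAM9i vehicle, against 709, 722 and 704 CPM in Rosa26-KO vehicle (log2 difference 0.48, edgeR adjusted p = 4.34e-07). Cp, the copper carrier ceruloplasmin, was higher by a log2 difference of 0.42 (edgeR adjusted p = 4.67e-07). Ccl2, the monocyte chemoattractant MCP-1, had 117.4, 109 and 109 CPM in ADAM9i vehicle, against 64.9, 68.0 and 62.0 CPM in Rosa26-KO vehicle (log2 difference 0.78 ± 0.047, edgeR adjusted p = 1.78e-07). Ccl5, or RANTES, had 8.90, 9.65 and 11.2 CPM in ADAM9i vehicle, against 1.92, 2.18 and 1.61 CPM in Rosa26-KO vehicle, a log2 difference of 2.38 ± 0.16 (edgeR adjusted p = 4.34e-07). Both chemokines recruit leukocytes. Il1rl1, which encodes the IL-33 receptor ST2, had 21.6, 14.5 and 13.7 CPM in ADAM9i vehicle, against 2.20, 1.10 and 1.22 CPM in Rosa26-KO vehicle (log2 difference 3.46 ± 0.32, edgeR adjusted p = 0.000618).

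Ptgs2, the inducible cyclooxygenase COX-2, had 23.2, 25.3 and 19 CPM in ADAM9i vehicle, against 9.87, 8.77 and 9.54 CPM in Rosa26-KO vehicle (log2 difference 1.26, edgeR adjusted p = 3.51e-06). Nos2, the inducible nitric oxide synthase, had 7.0, 5.57 and 2.68 CPM in ADAM9i vehicle, against 0.756, 0.258 and 0.633 CPM in Rosa26-KO vehicle (log2 difference 3.21, edgeR adjusted p = 0.00235), with ADAM9i vehicle replicate 3 well below the other two. Il6, the cytokine that drives hepatic acute-phase synthesis, had 1.16, 0.986 and 0.733 CPM in ADAM9i vehicle, against 0.279, 0.113 and 0.649 CPM in Rosa26-KO vehicle. The libraries did not overlap, but the difference did not pass the test (log2 difference 1.46 ± 0.52, edgeR adjusted p = 0.072). Not every ligand of the list was higher: Cxcl12, a chemokine constitutively made by stromal cells, was lower by a log2 difference of -0.27 (edgeR adjusted p = 0.000264) and Csf1, the macrophage growth factor, by -0.22 (edgeR adjusted p = 0.00077).

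**Figure D1:**
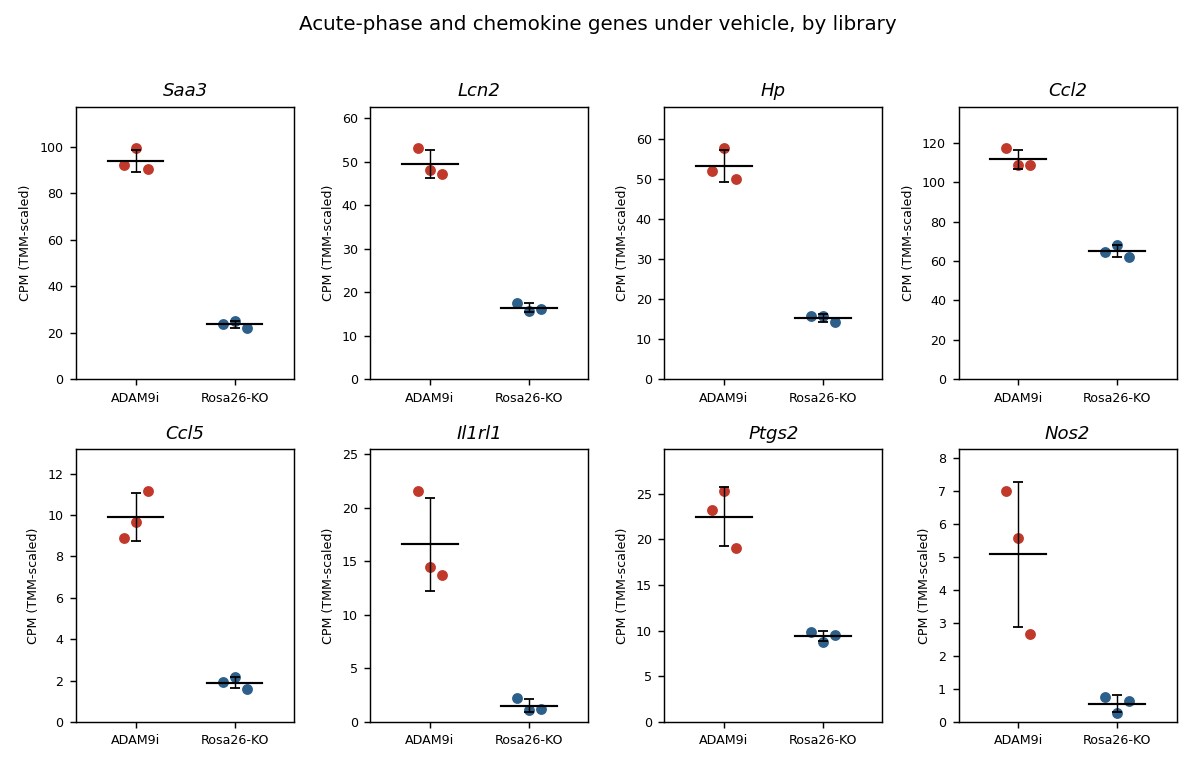
TMM-scaled CPM (vertical axis, linear from 0) of 8 acute-phase, chemokine and related genes in the ADAM9i vehicle and Rosa26-KO vehicle libraries; each point is 1 library, the long bar is the mean and the whiskers are ± 1 SD (n = 3 per group). Every ADAM9i point lies above every Rosa26-KO point in all 8 panels. The choice of genes required this for Saa3, Il1rl1 and Nos2, and Ccl2 was a fixed gene that also met that rule. Lcn2 was taken for its small p, and Hp, Ccl5 and Ptgs2 after their values were seen. Over all genes tested the groups did not overlap for 33.4%. The ADAM9i points of Nos2 spread from 2.68 to 7.0 CPM.

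Nfkbia, which encodes the NF-kB inhibitor IkBa and is itself transcribed on NF-kB activation, had 63.0, 62.1 and 63.0 CPM in ADAM9i vehicle, against 46.1, 47.7 and 48.3 CPM in Rosa26-KO vehicle (log2 difference 0.40 ± 0.045, edgeR adjusted p = 3.59e-05). Its start region is shown because it holds the letters of a classic kB site. The window runs 250 bases before to 50 after the RefSeq start, chr12:55492598-55492897 (minus strand), GRCm38.p6, and the match on the reverse strand to GGGA, any base, TTTCC is in capitals.
Nfkbia: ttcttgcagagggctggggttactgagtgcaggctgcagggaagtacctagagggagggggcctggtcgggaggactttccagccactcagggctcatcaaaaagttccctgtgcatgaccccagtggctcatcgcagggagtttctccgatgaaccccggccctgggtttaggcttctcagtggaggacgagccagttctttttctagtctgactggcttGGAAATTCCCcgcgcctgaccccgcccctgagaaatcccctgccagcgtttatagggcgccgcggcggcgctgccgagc
Both strands were searched, and the first base of the match lies 29 bases before the start. These letters were in 0.411% of all 32851 mouse windows of this length in the RefSeq table. Counted by gene, with a match in any of its windows, they were in 0.466% of 27025 genes. On that count they were in 6 of the 26 members of the NF-kB list that have a window, or 23.1%. Of those 6 genes, Cxcl1 and Nfkbia were called higher, Csf1 was called lower, Il6 and Nfkb2 did not pass the test and Cxcl2 was not tested.

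Interferon-stimulated genes were higher in ADAM9i under vehicle. Of 35 tested members 22 (62.9%) were called higher and 1 (2.86%) lower, beside 8.04% and 8.71% of all genes. The median log2 difference was 0.50, and limma on log2(FPKM + 1) called 14 higher. Bst2, or tetherin, which holds budding virus at the cell surface, had 75.3, 76.0 and 81.9 CPM in ADAM9i vehicle, against 47.5, 53.7 and 53 CPM in Rosa26-KO vehicle (log2 difference 0.60 ± 0.055, edgeR adjusted p = 6.22e-06). Isg15, the ubiquitin-like modifier, had 14.2, 14.1 and 15.1 CPM in ADAM9i vehicle, against 8.92, 8.80 and 8.30 CPM in Rosa26-KO vehicle (log2 difference 0.74 ± 0.094, edgeR adjusted p = 9.77e-05). Oas1a, an oligoadenylate synthetase that senses double-stranded RNA, had 2.13, 2.96 and 3.60 CPM in ADAM9i vehicle, against 0.263, 0.355 and 0.276 CPM in Rosa26-KO vehicle (log2 difference 3.27, edgeR adjusted p = 6.08e-06); it belongs to a family of close copies, which makes its level uncertain. Rsad2, the antiviral enzyme viperin, and Zbp1, a sensor of Z-form nucleic acids, were higher by log2 differences of 1.60 and 2.22 (edgeR adjusted p = 0.00139 and 0.000688). Ifit2 was the exception, with 72.7, 68.6 and 71.7 CPM in ADAM9i vehicle, against 77.7, 79.3 and 77.8 CPM in Rosa26-KO vehicle. Its log2 difference of -0.14 passed the test in edgeR (adjusted p = 0.0337) but lost the call when any 1 of 5 of the libraries was left out.

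The start regions of Isg15 and Bst2 are shown because their interferon-response letters stand in tandem. The windows are chr4:156200769-156201068 (minus strand) and chr8:71537423-71537722 (minus strand), GRCm38.p6, from RefSeq, with the overlapping matches to GAAA, any 2 bases, GAAA in capitals.
Isg15: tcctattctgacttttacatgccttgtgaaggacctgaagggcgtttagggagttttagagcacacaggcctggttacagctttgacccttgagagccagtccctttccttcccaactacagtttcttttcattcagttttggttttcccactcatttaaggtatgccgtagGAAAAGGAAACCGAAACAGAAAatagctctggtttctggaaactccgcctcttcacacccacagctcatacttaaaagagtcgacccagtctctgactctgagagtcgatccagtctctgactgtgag
Bst2: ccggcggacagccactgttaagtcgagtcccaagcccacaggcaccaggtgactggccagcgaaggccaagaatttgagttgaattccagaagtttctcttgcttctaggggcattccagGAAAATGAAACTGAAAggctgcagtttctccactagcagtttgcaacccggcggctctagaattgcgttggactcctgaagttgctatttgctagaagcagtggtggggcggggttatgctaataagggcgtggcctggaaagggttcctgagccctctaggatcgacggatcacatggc
Isg15 held 3 overlapping matches, starting 78, 72 and 66 bases before the start, and Bst2 held 2, starting 130 and 124 bases before it. Searched on both strands, the letters were in 3.44% of all windows. Counted by gene, they were in 3.99% of all genes and in 15 of the 25 list members that have a window, or 60%.

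Some antigen presentation genes were also higher. Of 13 tested members of the MHC class I list, 5 (38.5%) were called higher and 0 lower, beside 8.04% and 8.71% of all genes. The median log2 difference was 0.23. The list also holds Cd74 and Ciita, which belong to MHC class II presentation, and Cd74 is among those called higher. DESeq2 gave the same 5 and 0, and at an unadjusted p under 0.05 edgeR had 8 higher and 0 lower. Without ADAM9i vehicle replicate 2 or 3, and in the model over all 24 libraries, 3 were called higher. H2-D1, a classical class I heavy chain, had 82.4, 81.4 and 80.7 CPM in ADAM9i vehicle, against 60.7, 60.5 and 59.0 CPM in Rosa26-KO vehicle (log2 difference 0.44, edgeR adjusted p = 6.73e-06); class I heavy chains are near-identical copies, so its level is uncertain. Cd74, the invariant chain of MHC class II, had 23.1, 26.9 and 21.2 CPM in ADAM9i vehicle, against 7.90, 8.93 and 8.23 CPM in Rosa26-KO vehicle (log2 difference 1.5 ± 0.10, edgeR adjusted p = 4.42e-07). Cd74 is a gene of antigen-presenting cells as well as of interferon-treated smooth muscle; the macrophage marker levels of both groups are given above, and their part in this result was not tested.

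Genes of hypoxia and glycolysis were higher in ADAM9i, with a wide spread among the ADAM9i libraries. Of 30 tested members 15 (50%) were called higher and 1 (3.33%) lower, beside 8.04% and 8.71% of all genes. The median log2 difference was 0.57, and 29 of the 30 had a positive sign. Ankrd37, a target of the hypoxia-inducible factor HIF-1, had 4.09, 6.97 and 2.52 CPM in ADAM9i vehicle, against 0.641, 0.710 and 0.893 CPM in Rosa26-KO vehicle (log2 difference 2.59 ± 0.34, edgeR adjusted p = 0.000281). Egln3, the oxygen-sensing prolyl hydroxylase PHD3, had 21.6, 25.9 and 15.4 CPM in ADAM9i vehicle, against 9.61, 8.35 and 7.92 CPM in Rosa26-KO vehicle (log2 difference 1.28 ± 0.18, edgeR adjusted p = 0.00132). Bnip3, a HIF target that marks mitochondria for mitophagy, had 126, 146 and 73.9 CPM in ADAM9i vehicle, against 43.6, 36.5 and 39.2 CPM in Rosa26-KO vehicle (log2 difference 1.53 ± 0.30, edgeR adjusted p = 0.041). The groups did not overlap for these genes, as for 33.4% of all genes tested.

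The glucose transporter Slc2a1 had 116, 138 and 84.9 CPM in ADAM9i vehicle, against 56.6, 53.2 and 50.9 CPM in Rosa26-KO vehicle (log2 difference 1.07, edgeR adjusted p = 0.0349), and Ldha, lactate dehydrogenase A, 1419.6, 1436 and 1158 CPM in ADAM9i vehicle, against 807, 792 and 746 CPM in Rosa26-KO vehicle (log2 difference 0.78, edgeR adjusted p = 0.0102). The glycolytic enzymes Pkm and Eno2 were higher by log2 differences of 0.30 and 0.55 (edgeR adjusted p = 0.000184 and 6.35e-05). Gapdh, often used as a loading control, had 153, 199 and 65.8 CPM in ADAM9i vehicle, against 54.4, 61.2 and 67.5 CPM in Rosa26-KO vehicle. Its groups overlapped and it did not pass the test (log2 difference 1.19 ± 0.46, edgeR adjusted p = 0.199). Pfkfb3, which sets the level of the glycolytic activator fructose 2,6-bisphosphate, was the 1 member called lower, with 88.4, 95.9 and 99.5 CPM in ADAM9i vehicle, against 116, 112 and 114 CPM in Rosa26-KO vehicle (edgeR adjusted p = 0.000871).

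ADAM9i vehicle replicate 3 was the lowest of its group for 28 of the 31 entries of this list that had at least 60 counts over the 6 libraries, while replicate 1 was lowest for 2 and replicate 2 for 1. The median over the list stood 0.64, 0.72 and 0.38 above the Rosa26-KO vehicle mean on the log2 scale in ADAM9i vehicle replicates 1, 2 and 3. Without replicate 3, 27 members were called higher, in the model over all 24 libraries 25 were, and without any 1 of the other 5 libraries 10 to 12 were. Bnip3 lost its call without ADAM9i vehicle replicate 1 or 2 or any Rosa26-KO vehicle library, and Slc2a1 without ADAM9i vehicle replicate 1 or any Rosa26-KO vehicle library. Culture density and oxygen are not in the labels, and their part in this result was not tested.

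**Figure D2:**
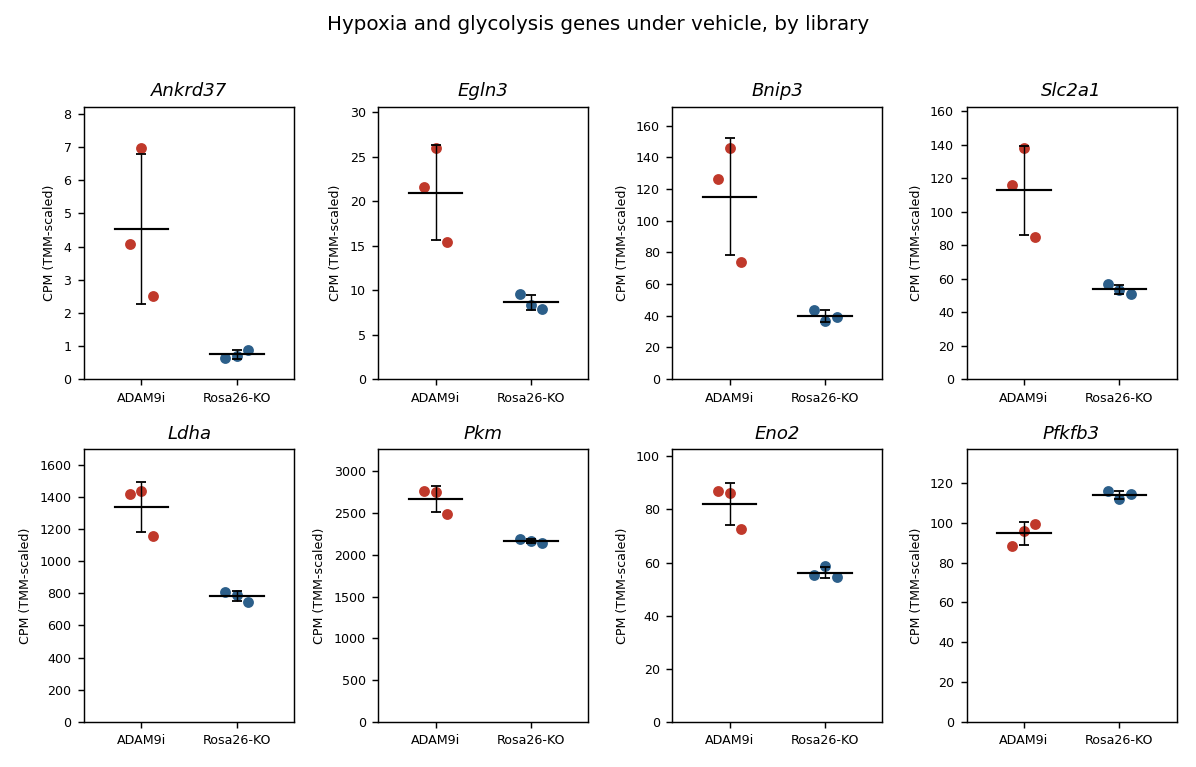
TMM-scaled CPM (vertical axis, linear from 0) of 8 hypoxia and glycolysis genes in the ADAM9i vehicle and Rosa26-KO vehicle libraries; points are libraries in the order of their replicate numbers, the long bar is the mean and the whiskers are ± 1 SD (n = 3 per group). The ADAM9i group is higher and wider than Rosa26-KO in the first 7 panels, with ADAM9i vehicle replicate 3 the lowest of its group, and lower for Pfkfb3.

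Start regions of 3 of these genes are shown because each holds the core of a hypoxia response element. The windows are chr8:45999801-46000100 (minus strand), chr12:54203825-54204124 (minus strand) and chr7:138909457-138909756 (minus strand), GRCm38.p6, from RefSeq, with ACGTG on either strand in capitals.
Ankrd37: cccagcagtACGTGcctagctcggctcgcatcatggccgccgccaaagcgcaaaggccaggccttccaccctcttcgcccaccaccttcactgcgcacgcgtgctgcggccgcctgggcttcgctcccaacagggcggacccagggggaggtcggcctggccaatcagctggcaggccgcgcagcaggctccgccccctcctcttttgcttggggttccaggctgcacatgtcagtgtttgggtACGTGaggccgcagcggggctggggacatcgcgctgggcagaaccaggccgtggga
Egln3: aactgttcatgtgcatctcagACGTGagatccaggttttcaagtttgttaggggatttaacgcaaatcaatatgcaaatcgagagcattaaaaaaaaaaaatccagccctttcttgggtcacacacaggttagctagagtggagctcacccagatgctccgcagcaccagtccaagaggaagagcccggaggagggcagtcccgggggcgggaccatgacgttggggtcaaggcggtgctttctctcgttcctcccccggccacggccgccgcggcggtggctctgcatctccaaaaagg
Bnip3: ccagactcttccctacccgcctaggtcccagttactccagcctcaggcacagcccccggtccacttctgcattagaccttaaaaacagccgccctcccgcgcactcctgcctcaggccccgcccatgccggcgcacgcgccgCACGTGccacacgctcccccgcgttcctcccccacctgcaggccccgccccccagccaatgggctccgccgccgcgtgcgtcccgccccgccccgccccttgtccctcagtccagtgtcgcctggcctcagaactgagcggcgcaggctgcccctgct
Ankrd37 held 2 matches, starting 241 and 6 bases before the start. Egln3 held 1, starting 229 bases before it, and in Bnip3 the matches on the 2 strands overlapped. The 5 letters are short and were in 19.6% of all windows. Counted by gene, they were in 21.8% of all genes and in 20 of the 28 list members that have a window, or 71.4%.

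Immediate early genes did not move together. Of 28 tested members of the immediate early and ERK feedback list, 6 (21.4%) were called higher and 4 (14.3%) lower (2 lower without Rosa26-KO vehicle replicate 2). Over all genes 8.04% were called higher and 8.71% lower. The median log2 difference of the list was 0.04. Fosb and Fos, subunits of the AP-1 factor, were higher: Fos had 13.8, 8.23 and 15.8 CPM in ADAM9i vehicle, against 4.39, 3.86 and 3.88 CPM in Rosa26-KO vehicle (log2 difference 1.64, edgeR adjusted p = 0.000462), and Fosb showed a log2 difference of 2.71 (edgeR adjusted p = 4.41e-06). Dusp1, a phosphatase that switches off MAP kinases, was higher by 0.64 (edgeR adjusted p = 8.81e-05). Atf3, a stress-induced repressor, had 13.8, 13.0 and 9.80 CPM in ADAM9i vehicle, against 17, 20.4 and 16.4 CPM in Rosa26-KO vehicle (log2 difference -0.56, edgeR adjusted p = 0.00801). Klf4, a factor that promotes the dedifferentiated state of smooth muscle, had 53.6, 52.5 and 56.2 CPM in ADAM9i vehicle, against 79.1, 77.2 and 74.5 CPM in Rosa26-KO vehicle (log2 difference -0.51 ± 0.046, edgeR adjusted p = 5.72e-06).

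Collagen genes were lower in ADAM9i. Of 22 tested, 10 were called lower and 1, Col3a1, was called higher, with a median log2 difference of -0.21. Over all genes 8.71% were called lower and 8.04% higher. Col1a1 and Col1a2, the chains of type I collagen, were lower: Col1a1 had 4007, 4208 and 4020.5 CPM in ADAM9i vehicle, against 5118, 5097 and 5226 CPM in Rosa26-KO vehicle (log2 difference -0.34 ± 0.023, edgeR adjusted p = 4.67e-07), and Col1a2 was lower by -0.40 ± 0.026 (edgeR adjusted p = 2.89e-07). Col11a1, a minor fibrillar chain that nucleates fibrils, had 43.8, 49.6 and 49.7 CPM in ADAM9i vehicle, against 83.0, 83.7 and 88.2 CPM in Rosa26-KO vehicle (log2 difference -0.83 ± 0.054, edgeR adjusted p = 3.07e-07). Col8a1, a short-chain collagen of the vessel wall, was lower by -0.61 (edgeR adjusted p = 2.21e-07).

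Among 27 tested elastic fibre and matrix glycoprotein genes 9 (33.3%) were called lower and 3 (11.1%), Fbln1, Spp1 and Efemp1, higher (5 higher without ADAM9i vehicle replicate 3). Among 17 tested proteoglycans 7 (41.2%) were called lower and 4 (23.5%) higher. Over all genes 8.71% were called lower and 8.04% higher. Fbln5, fibulin 5, needed to assemble elastic fibres, had 110.4, 115 and 113 CPM in ADAM9i vehicle, against 167, 169.7 and 168 CPM in Rosa26-KO vehicle (log2 difference -0.58 ± 0.034, edgeR adjusted p = 1.71e-07). Sparc, a collagen-binding glycoprotein, was lower by -0.29 (edgeR adjusted p = 5.72e-06). Ogn, the small leucine-rich proteoglycan osteoglycin, had 29.8, 29.3 and 35.8 CPM in ADAM9i vehicle, against 62.2, 62.0 and 61.1 CPM in Rosa26-KO vehicle (log2 difference -0.97 ± 0.069, edgeR adjusted p = 6.33e-07). Vcan, the large proteoglycan versican, went the other way, with 51.8, 48.3 and 54.6 CPM in ADAM9i vehicle, against 28.6, 25.2 and 28.9 CPM in Rosa26-KO vehicle (log2 difference 0.90 ± 0.068, edgeR adjusted p = 9.16e-07). Cemip, which degrades hyaluronan, had 77.0, 75.4 and 75.8 CPM in ADAM9i vehicle, against 162, 150.0 and 149 CPM in Rosa26-KO vehicle (log2 difference -1.01 ± 0.041, edgeR adjusted p = 3.83e-09). Itga1, the collagen-binding integrin subunit, was lower by -0.84 (edgeR adjusted p = 4.21e-05). Of 16 integrins tested 3 (18.8%) were called lower and 2 (12.5%) higher.

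Of 26 tested matrix metalloproteinases and inhibitors 8 (30.8%) were called lower and 5 (19.2%) higher, beside 8.71% and 8.04% of all genes. Timp1, a tissue inhibitor of metalloproteinases, had 106, 101 and 101 CPM in ADAM9i vehicle, against 87.0, 81.2 and 85.1 CPM in Rosa26-KO vehicle (log2 difference 0.28, edgeR adjusted p = 0.000286), while Timp2 was lower by -0.22 (edgeR adjusted p = 4.36e-05). Adamts1, a versican-cleaving protease, had 112, 119 and 112 CPM in ADAM9i vehicle, against 176, 175 and 167 CPM in Rosa26-KO vehicle (log2 difference -0.59 ± 0.039, edgeR adjusted p = 3.07e-07). The gelatinase Mmp2 had 283, 292 and 297 CPM in ADAM9i vehicle, against 287, 297 and 292 CPM in Rosa26-KO vehicle; the ranges overlapped and it did not pass the test (log2 difference -0.01 ± 0.03, edgeR adjusted p = 0.906). Mmp9, the second gelatinase, was below 1 CPM in all 6 libraries and did not pass the test (edgeR adjusted p = 0.23).

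Several lists of signalling genes also had more members called lower than higher. Of 28 tested TGF-beta and BMP genes 11 (39.3%) were called lower and 0 higher, with a median log2 difference of -0.20. Over all genes, 8.71% were called lower and 8.04% higher. In the TGF-beta and BMP list DESeq2 called 14 lower and 0 higher. At an unadjusted p under 0.05 edgeR had 16 lower and 1 higher there. Tgfb2, a TGF-beta ligand, had 16.3, 18.6 and 16.7 CPM in ADAM9i vehicle, against 31.4, 33.0 and 32.1 CPM in Rosa26-KO vehicle (log2 difference -0.90 ± 0.075, edgeR adjusted p = 2.74e-06). Bmp4, a BMP ligand, had 75.1, 74.3 and 79.5 CPM in ADAM9i vehicle, against 119, 117.2 and 115 CPM in Rosa26-KO vehicle (log2 difference -0.62 ± 0.041, edgeR adjusted p = 3.07e-07). Id2, a direct BMP target, was lower by -0.26 (edgeR adjusted p = 0.000157). Ccn5, a matricellular protein of smooth muscle, was lower by -0.68 (edgeR adjusted p = 6.94e-07). Of 31 tested ligands and receptors of the PDGF, FGF, IGF and VEGF families 9 (29%) were called lower and 1 higher. Of 20 YAP targets 8 (40%) were called lower and 2 higher. Of 28 Wnt and planar polarity genes 7 (25%) were lower and 1 higher, and of 15 Notch genes 4 (26.7%) lower and 1 higher.

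Unfolded protein response and ATF4 target genes were lower in ADAM9i under vehicle, by small amounts. Of 30 tested, 18 (60%) were called lower and 1 (3.33%) higher, beside 8.71% and 8.04% of all genes. The median log2 difference was -0.16. Chac1, which degrades glutathione and is induced by ATF4, had 26.5, 31.9 and 33.9 CPM in ADAM9i vehicle, against 47.9, 52.7 and 48.1 CPM in Rosa26-KO vehicle (log2 difference -0.69 ± 0.081, edgeR adjusted p = 7.07e-05). Trib3, a pseudokinase that restrains ATF4, had 47.2, 58.3 and 49.2 CPM in ADAM9i vehicle, against 72.2, 75.0 and 70.7 CPM in Rosa26-KO vehicle (log2 difference -0.49, edgeR adjusted p = 0.000281). The amino acid transporter Slc7a5, with 319, 337 and 314 CPM in ADAM9i vehicle, against 457, 477 and 443 CPM in Rosa26-KO vehicle, was lower by -0.51 ± 0.034 (edgeR adjusted p = 4.42e-07). Mthfd2, a mitochondrial folate enzyme, was lower by -0.46 (edgeR adjusted p = 2.46e-05), and Psat1, of serine synthesis, by -0.26 (edgeR adjusted p = 6.22e-06). The ER chaperone Hspa5, or BiP, had 790.4, 795 and 818 CPM in ADAM9i vehicle, against 817, 828 and 817 CPM in Rosa26-KO vehicle, and did not pass the test (edgeR adjusted p = 0.403).

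The start region of Chac1, chr2:119350992-119351291 (plus strand), GRCm38.p6, from RefSeq, is shown because it holds the letters of a CCAAT-enhancer and ATF response element, the kind of site that ATF4 binds. The match to TGATGNAAN on the reverse strand is in capitals.
Chac1: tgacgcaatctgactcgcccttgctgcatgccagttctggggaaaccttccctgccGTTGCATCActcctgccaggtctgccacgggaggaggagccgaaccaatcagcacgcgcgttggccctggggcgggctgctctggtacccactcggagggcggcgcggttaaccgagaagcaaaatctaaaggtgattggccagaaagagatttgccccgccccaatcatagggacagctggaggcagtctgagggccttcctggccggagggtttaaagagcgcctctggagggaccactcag
It starts 194 bases before the start site. On both strands these letters were in 3.95% of all windows. Counted by gene, they were in 4.5% of all genes and in 7 of the 27 list members that have a window, or 25.9%.

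The contractile genes differed little in the median, with a log2 difference of 0.04. Of 22 tested, 4 (18.2%) were called higher and 1 (4.55%) lower, beside 8.04% and 8.71% of all genes. Without ADAM9i vehicle replicate 1 or Rosa26-KO vehicle replicate 1 only 1 was called higher, and without Rosa26-KO vehicle replicate 2 or in the model over all 24 libraries 2 were. Acta2, smooth muscle alpha-actin, had 482, 445 and 478 CPM in ADAM9i vehicle, against 412, 411 and 421 CPM in Rosa26-KO vehicle (log2 difference 0.18 ± 0.032, edgeR adjusted p = 0.00168). The call for Acta2 was lost in the model over all 24 libraries (adjusted p = 0.267 in edgeR). Tagln, or SM22, had 11.4, 12.6 and 11.4 CPM in ADAM9i vehicle, against 8.38, 10.2 and 10.1 CPM in Rosa26-KO vehicle, and did not pass the test (log2 difference 0.31 ± 0.11, edgeR adjusted p = 0.0692). Cnn1, calponin, had 1.68, 1.38 and 1.61 CPM in ADAM9i vehicle, against 0.641, 0.323 and 0.909 CPM in Rosa26-KO vehicle (log2 difference 1.32, edgeR adjusted p = 0.0191), a call that was lost when any 1 of 4 of the libraries was left out. Mylk, myosin light chain kinase, was the 1 member called lower (log2 difference -0.50, edgeR adjusted p = 0.00169). Of 21 tested regulators of smooth muscle phenotype 9 (42.9%) were called lower and 1 (4.76%) higher. Myocd, the myocardin coactivator of contractile genes, had 0.556, 0.904 and 0.733 CPM in ADAM9i vehicle, against 1.48, 1.52 and 1.01 CPM in Rosa26-KO vehicle, and did not pass the test (edgeR adjusted p = 0.078).

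Cell-cycle genes were slightly higher in ADAM9i. Of 30 tested mitosis genes 20 (66.7%) were called higher and 0 lower, beside 8.04% and 8.71% of all genes. The median log2 difference was 0.18. DESeq2 called 21 higher and 0 lower, and at an unadjusted p under 0.05 edgeR had 22 higher and 0 lower. Kif20a, a mitotic kinesin, had 291, 277 and 289 CPM in ADAM9i vehicle, against 234, 232 and 231 CPM in Rosa26-KO vehicle (log2 difference 0.30 ± 0.030, edgeR adjusted p = 1.29e-05). Aurka, the spindle kinase Aurora A, was higher by 0.35 (edgeR adjusted p = 6.2e-05). Mki67, the proliferation marker Ki-67, had 624, 622 and 625 CPM in ADAM9i vehicle, against 567, 558 and 609.9 CPM in Rosa26-KO vehicle; its log2 difference of 0.11 passed the test in edgeR (adjusted p = 0.0284) but lost the call when any 1 of 5 of the libraries was left out. Of 32 tested DNA replication genes 7 (21.9%) were called higher and 0 lower by edgeR (10 and 1 at an unadjusted p under 0.05, and 8 and 1 by DESeq2). Of 40 cytosolic ribosomal protein genes 16 (40%) were called higher and 3 (7.5%) lower. Without any 1 of ADAM9i vehicle replicates 1 and 2 or Rosa26-KO vehicle replicates 1 and 3, 4 DNA replication genes were called higher, and without ADAM9i vehicle replicate 1 or Rosa26-KO vehicle replicate 1, 10 ribosomal protein genes were.

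Among the relatives of the inhibited protease, 10 ADAM genes were tested, of which 1 (10%) was called higher and 3 (30%) lower, Adam9 included. Over all genes 8.04% were called higher and 8.71% lower. Adam10, the main constitutive sheddase, had 127, 127 and 133 CPM in ADAM9i vehicle, against 151, 149 and 155 CPM in Rosa26-KO vehicle (log2 difference -0.23 ± 0.036, edgeR adjusted p = 0.000512). Adam19 was lower by -0.43 (edgeR adjusted p = 0.00534), and Adam15 was higher by 0.18 (edgeR adjusted p = 0.00467). Of 22 tested genes for reported ADAM9 substrates and partners in shedding 3 (13.6%) were called higher (5 without ADAM9i vehicle replicate 3) and 3 (13.6%) lower. Their median log2 difference was 0.003. Of 11 EGFR ligands and receptors 1 (9.09%) was called lower and 0 higher by edgeR, as by DESeq2. At an unadjusted p under 0.05 edgeR had 3 of these lower and 2 higher. Mt2, a metal-binding metallothionein, was higher by 0.47 (edgeR adjusted p = 0.000224), in a list of 18 tested metallothionein and metal-handling genes with 5 (27.8%) called higher and 3 (16.7%) lower. Lists of sterol synthesis (5 higher and 5 lower of 32), NRF2 targets (5 and 5 of 27), p53 targets (2 and 6 of 25), lipid handling (3 and 2 of 22) and xenobiotic metabolism (6 and 1 of 17) had few calls in number. As shares, 35.3% of the xenobiotic list was called higher, beside 8.04% of all genes, and 24% of the p53 list called lower, beside 8.71% of all genes. The shares called higher and lower were 15.6% and 15.6% for sterol synthesis, 18.5% and 18.5% for NRF2 targets, and 13.6% and 9.09% for lipid handling. Without Rosa26-KO vehicle replicate 3 the sterol counts were 3 and 3, without ADAM9i vehicle replicate 1 the sterol list had 3 lower, and without Rosa26-KO vehicle replicate 2 the NRF2 list had 3 lower.

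**Figure D3:**
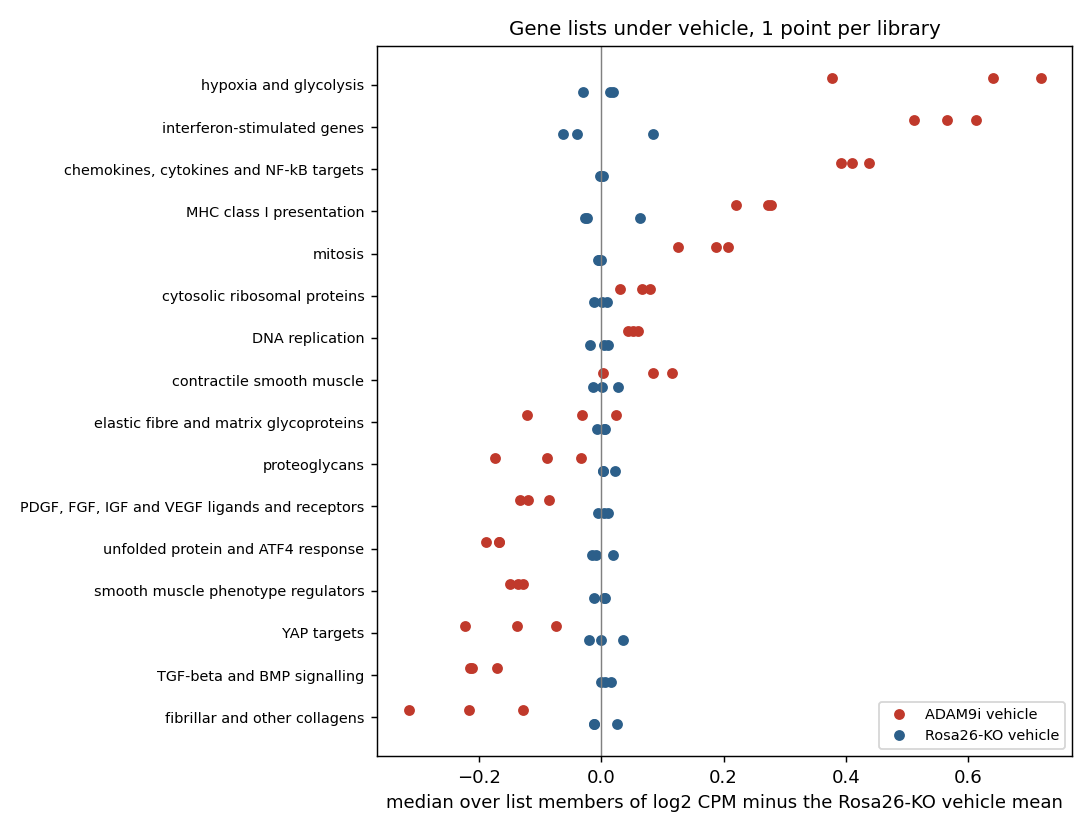
Median over the tested members of each of 16 gene lists (rows) of log2 CPM minus the Rosa26-KO vehicle mean (horizontal axis); each point is 1 library, ADAM9i vehicle above Rosa26-KO vehicle in each row (n = 3 each). ADAM9i points lie right of all Rosa26-KO points for hypoxia, interferon, chemokine, MHC, mitosis, ribosomal protein and DNA replication lists, left of them for the collagen, TGF-beta, YAP, regulator, ATF4, growth factor and proteoglycan lists, and overlap them for the contractile and elastic fibre lists.

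The same contrast was fitted in the 6 libraries given rhCTHRC1, which share no library with the vehicle fit. There 9368 of 17670 genes tested (53%) were called, 4667 (26.4%) higher and 4701 (26.6%) lower in ADAM9i; 626 (3.54%) were called and at least 2-fold higher and 1151 (6.51%) at least 2-fold lower, and the libraries did not overlap for 61% of the genes tested. Scaled by library size alone, the split was 3846 higher and 5652 lower. Of the 1391 genes higher under vehicle, 1385 were tested under rhCTHRC1, and 818 of these (59.1%) were called higher there too, 285 (20.6%) lower and 282 not called; 27.4% of all genes tested in both fits were called higher under rhCTHRC1. Of the 1508 lower under vehicle, 1504 were tested, and 687 (45.7%) were called lower there, beside 27.2% of all genes. Another 408 (27.1%) were called higher, near the 27.4% of all genes, and 409 were not called. Of the 133 tested genes at least 2-fold higher under vehicle 78 were called higher under rhCTHRC1, 15 lower and 40 not at all. Of the 29 tested genes at least 2-fold lower under vehicle 12 were called lower there, 2 higher and 15 not at all.

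The difference between the 2 contrasts was itself tested in the 12 libraries, and 7169 of 18593 genes (38.6%) were called. The signed value under rhCTHRC1 was called larger for 3803 genes (20.5%) and smaller for 3366 (18.1%). For 422 (2.27%) it was called and at least 2-fold larger, and for 908 (4.88%) called and at least 2-fold smaller. Scaled by library size alone, the split was 3006 larger and 4250 smaller. Saa3 was higher in ADAM9i under rhCTHRC1 too, at 66.8, 72.6 and 67.1 CPM in ADAM9i, against 24.3, 22.7 and 21.6 CPM in Rosa26-KO (log2 difference 1.59, edgeR adjusted p = 1.88e-10). Lcn2, Il1rl1, Nos2 and Nrcam had log2 differences of 1.71, 3.89, 3.36 and 2.86 there, and the change from vehicle did not pass the test for any of the 4 (edgeR adjusted p = 0.36, 0.399, 0.875 and 0.719). Fras1, Adamtsl3 and Ntrk3 were lower by -1.46, -1.21 and -1.23 under rhCTHRC1, and Col1a2 by -0.35, and again the change from vehicle did not pass (edgeR adjusted p = 0.768, 0.912, 0.911 and 0.274). Hypoxia genes were higher under both. Of 31 entries (1 member has 2) 25 (80.6%) were called higher and 2 (6.45%) lower under rhCTHRC1, beside 26.4% and 26.6% of all genes. Their median log2 difference was 0.99. Ankrd37 had 7.33, 5.0 and 6.42 CPM in ADAM9i rhCTHRC1, against 0.871, 0.401 and 0.461 CPM in Rosa26-KO rhCTHRC1.

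Other groups stood on the opposite side under rhCTHRC1. Of 36 tested interferon-stimulated genes 32 (88.9%) were called lower and 1 (2.78%) higher in ADAM9i rhCTHRC1, with a median log2 difference of -0.98. Over all genes tested under rhCTHRC1, 26.6% were called lower and 26.4% higher. Of 14 members of the MHC class I list 11 (78.6%) were called lower and 1 (7.14%) higher. Isg15 had 10.4, 11.2 and 12.7 CPM in ADAM9i rhCTHRC1, against 19.4, 23.6 and 22.1 CPM in Rosa26-KO rhCTHRC1, and its difference changed by -1.66 on the log2 scale from vehicle (edgeR adjusted p = 5.78e-09). Of 30 unfolded protein and ATF4 genes 29 (96.7%) were called higher and 0 lower by edgeR under rhCTHRC1. The numbers were the same at an unadjusted p under 0.05, and the median was 0.92. Chac1 had 36.3, 36.2 and 38.5 CPM in ADAM9i rhCTHRC1, against 11.2, 10.3 and 9.87 CPM in Rosa26-KO rhCTHRC1, a change of 2.51 from vehicle (edgeR adjusted p = 4.11e-12). Acta2 did not change side and was higher in ADAM9i under both. It had 397, 401 and 355 CPM in ADAM9i rhCTHRC1, against 39.1, 40.3 and 42.6 CPM in Rosa26-KO rhCTHRC1. For Chac1, Isg15 and Acta2 the ADAM9i levels under rhCTHRC1 and vehicle lay closer together than the Rosa26-KO levels did.

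**Figure D4:**
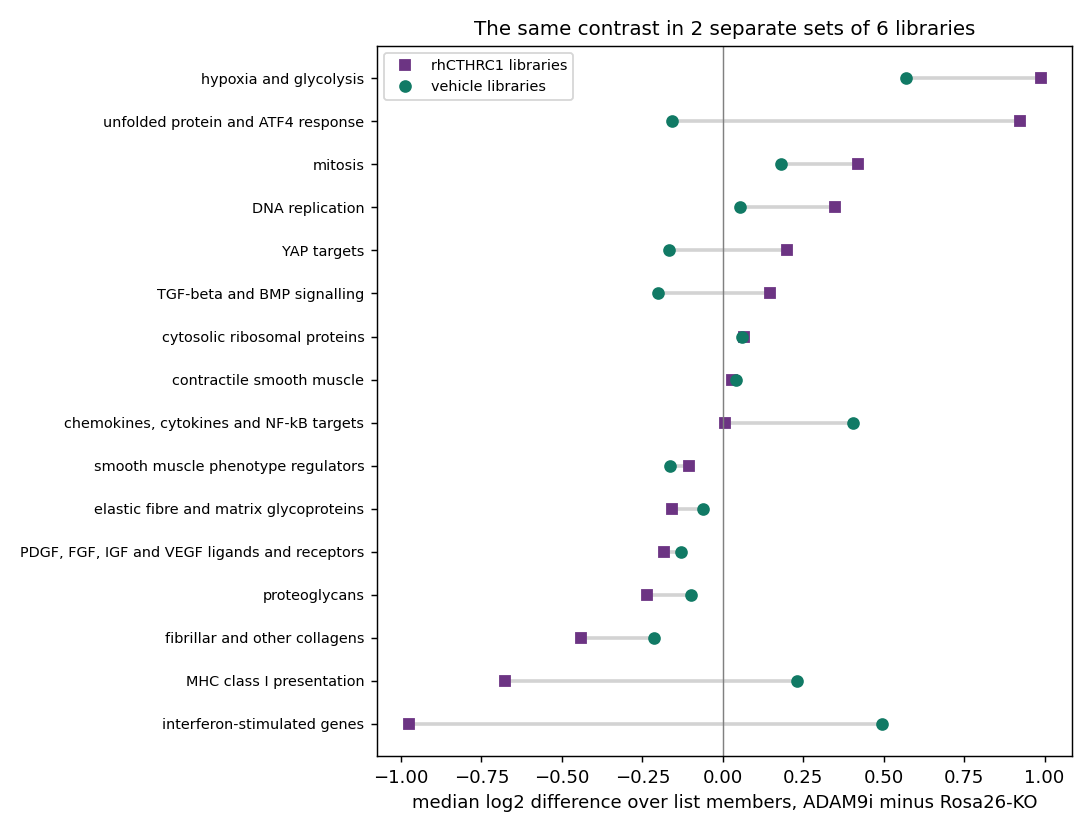
Median log2 difference, ADAM9i minus Rosa26-KO, over the tested members of 16 gene lists (rows), in the vehicle libraries (circles) and in the rhCTHRC1 libraries (squares), each from 3 against 3 libraries. The hypoxia, mitosis and collagen lists lie on the same side of 0 in both, while the interferon, MHC, ATF4, YAP and TGF-beta lists lie on opposite sides.

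Levels in the other vehicle groups are set beside these, with no test, since such comparisons would share libraries with the one reported. Saa3 had 12.8, 11.3 and 11.4 CPM in Adam9-KO vehicle cells and 42.2, 45.1 and 41.3 CPM in WT vehicle cells, which are unedited and had no inhibitor, so that ADAM9i vehicle, at 90.5 to 99.4 CPM, was the highest of the 4 vehicle groups. Hp had 4.82 to 6.25 CPM in Adam9-KO vehicle and 0.596 to 1.75 CPM in WT vehicle, both below Rosa26-KO vehicle at 14.2 to 15.9 CPM. Ccl5 had 1.49 to 1.76 CPM in Adam9-KO vehicle, nearer to Rosa26-KO vehicle, and 6.60 to 7.02 CPM in WT vehicle, nearer to ADAM9i vehicle. Isg15 had 8.57 to 9.38 CPM in Adam9-KO vehicle, overlapping Rosa26-KO vehicle, and 18.5 to 19.9 CPM in WT vehicle, above ADAM9i vehicle. Over the interferon list the median stood 0.51 to 0.61 above the Rosa26-KO vehicle mean on the log2 scale in ADAM9i vehicle, 0.20 to 0.36 in Adam9-KO vehicle and 0.58 to 0.83 in WT vehicle.

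The hypoxia list ordered the groups otherwise, at 0.38 to 0.72 in ADAM9i vehicle, -0.11 to -0.09 in Adam9-KO vehicle and -0.30 to -0.16 in WT vehicle. Bnip3 had 28.8 to 35.4 CPM in Adam9-KO vehicle and 25.8 to 27.7 CPM in WT vehicle, both below Rosa26-KO vehicle at 36.5 to 43.6 CPM. WT vehicle stood far from the other 3 groups in several lists: the ATF4 list was at -0.19 to -0.17 in ADAM9i vehicle, -0.07 to -0.003 in Adam9-KO vehicle and 1.25 to 1.28 in WT vehicle, and the collagen list at -0.31 to -0.13 in ADAM9i vehicle, 0.07 to 0.09 in Adam9-KO vehicle and -1.27 to -1.02 in WT vehicle. Chac1 had 414 to 429 CPM and Col1a1 1082 to 1223 CPM in WT vehicle. Adam9 had 130.1, 136 and 149.8 CPM in Adam9-KO vehicle, below the ADAM9i vehicle levels of 159 to 172 CPM, and 255, 211 and 281 CPM in WT vehicle, a range that holds the Rosa26-KO vehicle levels.

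**Figure D5:**
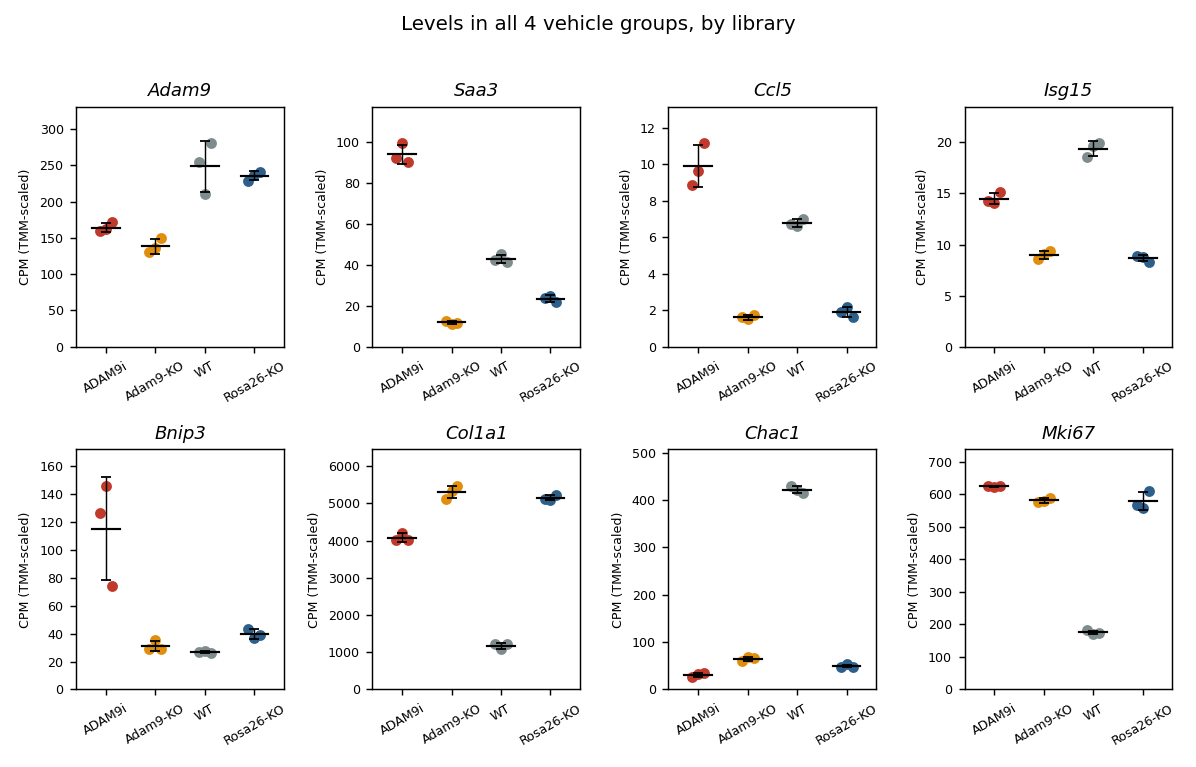
TMM-scaled CPM (vertical axis, linear from 0) of 8 genes in the ADAM9i, Adam9-KO, WT and Rosa26-KO vehicle libraries; each point is 1 library, the long bar is the mean and the whiskers are ± 1 SD (n = 3 per group). ADAM9i is the highest group for Saa3, Ccl5 and Bnip3, WT stands apart from the other groups for Isg15, Col1a1, Chac1 and Mki67, and the ADAM9i and Adam9-KO groups are the lowest for Adam9.

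The calls were not spread evenly over the chromosomes. On chromosome 15, 17.1% of 677 tested genes were called higher and 6.79% lower, with a median log2 difference of 0.08, and on chromosome 11, 14.3% of 1297 were called higher and 4.86% lower, with a median of 0.06. On chromosome 9, 3.81% of 944 were called higher and 14% lower, with a median of -0.04. The median over chromosome 15 stood 0.070 to 0.081 above the Rosa26-KO vehicle mean in the 3 ADAM9i vehicle libraries and 0.008 to 0.013 above it in the 3 Adam9-KO vehicle libraries. Under rhCTHRC1 the share on chromosome 15 was 31.8% higher and 27.2% lower, nearer to the shares of 26.4% and 26.6% over all genes.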

How the data were processed

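RNA of 24 MOVAS libraries (8 groups of 3) went into strand-marking total RNA libraries with paired reads of 150 bases, per the labels' protocols. GRCm38, HISAT2, StringTie and DESeq2 stand in the submitters' processing notes, without versions. For 33034 genes the authors deposited a raw count and an FPKM value in each library; the sources used here do not state the annotation or whether strand was used in counting. Counts gave the main results, and FPKM 1 alternative.

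Counts were analysed here with R 4.3.3 and its package edgeR 4.0.16, with DESeq2 1.42.0 and limma 3.58.1 for alternatives and matplotlib 3.10.9 for figures. TMM factors came from all 24 libraries (19891 genes kept by filterByExpr). The vehicle contrast was fitted on its 6 libraries (4 residual degrees of freedom), the rhCTHRC1 contrast on 6 others, and their difference on 12 (8 degrees of freedom), with a robust quasi-likelihood F test, two-sided, and Benjamini-Hochberg adjustment over all genes tested. Adjusted p are from edgeR unless DESeq2 or limma is named; ± after a log2 difference is its standard error. List scores used log2(CPM + 0.05). The scripts were tested on simulated data. Replicates of a group differed by more than counting noise in every pair (chi-square per gene of at least 9.882), so each was counted.

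The comparison and the 40 gene lists (920 memberships, 883 distinct symbols, 865 with an entry) were chosen with earlier results of these data known. The rule named 13 fixed genes, the 12 largest differences in each direction among called genes of at least 1 CPM without overlap, the 8 of smallest p at 50 CPM or more in each direction, and up to 3 called members of each list in each direction, giving 193 genes. The text draws on 89 genes, 72 of them by the rule; the 17 others (Hp, Ccl5, Ptgs2, Zbp1, Bnip3, Egln3, Ldha, Slc2a1, Fos, Col1a1, Col11a1, Chac1, Hspa5, Nfkbia, Rsad2, Trib3 and Gapdh) were chosen after their values were seen. Promoter windows are from RefSeq (GRCm38.p6). Of the 89 genes, 66 had a window.

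Alternatives were other size factors, DESeq2, limma on log2(FPKM + 1), no filter, a fold minimum, other sets of libraries, a replicate block and leaving out each library. Same-numbered libraries did not correlate above 0.1 in every pair of any 2 groups compared, so numbers were not treated as pairs.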

Additional observations from a re-analysis of the deposited data

Results flagged for a closer look

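For 61 of the 88 tested genes that the text draws on, the ADAM9i minus Rosa26-KO difference under rhCTHRC1 departed from that under vehicle in the test of the difference itself (edgeR, adjusted over 18593 genes). Over all genes in that test 38.6% did. Most of the 88 were chosen by their vehicle values, which also enter this test, so their count does not describe genes at large. As a signed value, the difference was larger under rhCTHRC1 in 40 and smaller in 21, beside 20.5% and 18.1% of all genes. For a gene lower in ADAM9i under vehicle, a larger signed value means a shrunken or reversed difference, and a smaller one a deeper decrease. The changes below are differences of log2 differences, rhCTHRC1 minus vehicle.

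Interferon, antigen presentation and innate sensing genes all had smaller values under rhCTHRC1, with -1.22 for Bst2, -1.66 for Isg15, -2.03 for Rsad2, -2.02 for Oas1a, -2.96 for Zbp1, -0.40 for Ifit2, -0.93 for H2-D1 and -1.78 for Cd74. Acute-phase and chemokine genes were divided, with smaller values of -0.41 for Saa3, -0.43 for Hp, -1.25 for C3, -0.63 for Cp, -2.83 for Ccl5 and -0.38 for Nfkbia, and larger values of 0.76 for Ccl2, 0.998 for Ptgs2 and 0.57 for Csf1. Genes of the ATF4 and unfolded protein response had larger values, with 2.51 for Chac1, 2.01 for Trib3, 1.98 for Mthfd2, 1.53 for Slc7a5, 1.30 for Psat1, 1.19 for Hspa5 and 2.23 for Atf3. 

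The hypoxia and glycolysis genes changed by 1.31 for Ldha, 0.67 for Egln3, 0.51 for Pkm and -0.61 for Eno2. The contractile and smooth muscle genes changed by 3.06 for Acta2, 1.77 for Tagln, -0.78 for Mylk, 1.95 for Myocd and 1.32 for Klf4. Matrix genes changed by 0.25 for Col1a1, 0.17 for Col8a1, -0.29 for Col11a1, 0.49 for Fbln5, 0.18 for Sparc, -1.23 for Ogn, 0.70 for Vcan and 1.46 for Cemip. Proteases and their inhibitors changed by -0.28 for Adam15, 0.58 for Adam19, 1.74 for Adamts1, -1.01 for Mmp2, -2.02 for Mmp9, 0.97 for Timp1 and 0.32 for Timp2. 

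Signalling genes changed by 0.87 for Tgfb2, 0.59 for Bmp4, 1.52 for Id2, 0.71 for Ccn5 and 2.88 for Fos. Cell-cycle genes changed by 0.36 for Aurka, 0.14 for Kif20a and 0.19 for Mki67. The remaining changes were 2.13 for Lypd1, 2.75 for Map3k7cl, 0.33 for Mt2, 2.995 for Prl2c2 and 2.02 for Prl2c3.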

How the results depend on the processing

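No called difference of a named gene changed sign under the alternatives run. Which direction held more calls did turn, for vehicle (1561 higher and 1344 lower by library size alone, 1247 and 1038 with limma) and for the change between treatments (3006 larger and 4250 smaller by library size alone, 3012 and 3683 with limma). Under rhCTHRC1, where the directions were close, it turned under several alternatives (4781 higher and 4575 lower with DESeq2). Medians of lists near 0 also changed sign, over ranges of -0.10 to 0.10 for the ADAM family, -0.11 to 0.01 for Wnt, -0.09 to 0.04 for EGFR, -0.03 to 0.07 for ADAM9 substrates and -0.001 to 0.10 for immediate early genes. Scaled by RLE, TMM within the fit or library size alone, the vehicle count was 2889, 2885 and 2905; it was 3343 with DESeq2, 2285 with limma on log2(FPKM + 1) and 2728 without the filter on low counts. Requiring an absolute log2 difference of at least 1 left 172 genes under vehicle (139 higher and 33 lower), 1777 under rhCTHRC1 (626 and 1151) and 1330 for their difference (422 and 908). Leaving out 1 library at a time gave 1930 to 2535 under vehicle (893 to 1203 higher and 1037 to 1332 lower), 8477 to 9028 under rhCTHRC1 (4296 to 4453 and 4181 to 4575) and 6628 to 6970 for the difference (3593 to 3714 and 3035 to 3256). With the replicate number as a block the counts were 3062, 8992 and 7137; same-numbered libraries of the vehicle groups correlated at 0.033, 0.003 and 0.021, and over the 4 ADAM9i and Rosa26-KO groups from -0.0337 to 0.181 (ADAM9i vehicle 1 with ADAM9i rhCTHRC1 1), so the block is no pairing. Scaled by library size alone, the median over all genes was -0.11 under rhCTHRC1. Of the vehicle values of the named genes under the alternatives, 1265 stayed on the same side of the threshold, 31 lost a call and 8 gained one; Il6 was called by DESeq2 (adjusted p = 0.0431). Of the changes under rhCTHRC1, the calls of Prl2c3 (adjusted p = 0.27), Hp (0.126) and Saa3 (0.0595) were lost in edgeR's model over all 24 libraries, those of Col8a1, Kif20a, Mki67 and Sparc by library size alone and with limma, and those of Egln3 and Prl2c3 with limma. Leaving out some single libraries ended the calls of Col8a1, Egln3 and Prl2c3. With 3 libraries a group, weakly expressed genes are measured coarsely, as for Il6 with its standard error of 0.52.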
